A study of Mus musculus with 20 samples.

Results

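Prostaglandins and leukotrienes are short-lived lipid mediators that cells make from arachidonic acid released from membrane phospholipids. Cyclooxygenases (Ptgs1, the constitutive enzyme, and Ptgs2, the inducible one) convert arachidonic acid to prostaglandin H2, which terminal synthases such as Ptges (prostaglandin E2) and Hpgds (prostaglandin D2) process further, and Hpgd starts the inactivation of prostaglandins by oxidation. On the other branch Alox5 (5-lipoxygenase), with its partner protein Alox5ap, makes leukotriene A4, from which Lta4h forms leukotriene B4 and Ltc4s forms the cysteinyl leukotriene C4. Pla2g7 is a secreted phospholipase that inactivates platelet-activating factor, a related lipid mediator. Macrophages are a known source of these mediators during the response to bacterial lipopolysaccharide (LPS).

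The RNA of these 10 enzymes was followed in macrophages of the mouse cranial dura mater (dCAMs, dural CNS-associated macrophages). The enzymes were chosen by name, with earlier results of these data known. All 10 were found among the 33243 genes of the count table. All 10 also passed the filter on low counts, as did 16632 genes in all. The 20 bulk RNA-seq libraries came from 10 mice with the genotype Ccr2creERT2/+ R26tdT/tdT, in which tamoxifen turns on the red reporter tdT in cells that express Ccr2 when it is given. All mice, controls included, had taken the CSF1R inhibitor BLZ945 (200 mg per kg for 7 days) and tamoxifen (2 mg per day), so that every group holds macrophages that had refilled a depleted dura. After 8 weeks, 5 mice received LPS (2.5 mg per kg) and 5 received PBS (CTL), and the dura was taken 12 h later. The sort took CD45int CD11b+ cells with intermediate to high CD206 and divided those of every mouse by tdT into 2 libraries, giving 4 groups of 5: tdT- CTL, tdT+ CTL, tdT- LPS and tdT+ LPS. The tdT label depends on Ccr2 expression at the time of tamoxifen, so that tdT- libraries can hold cells that lacked Ccr2 then as well as cells that escaped recombination. Age was not given in the labels. CTL mice carry the numbers 174, 175, 177, 178 and 179 and LPS mice the numbers 54, 56, 59, 60 and 61, and values below follow this order. Whether CTL and LPS mice were handled on the same days is not given in the sources used here, so that handling and treatment cannot be told apart. Levels are given as CPM, the usual unit in which the counts of a gene are set against the total of its library, here after TMM scaling.

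Library totals ranged from 6017650 to 12208203 counts in CTL and from 12073566 to 18925908 counts in LPS mice. Genes with at least 10 counts numbered 6671 to 9365 in tdT- CTL libraries and 10024 to 11987 in the other groups. The part of these differences in the comparisons below was not tested. Markers of the gated macrophages were present in all 20 libraries, with Csf1r (the receptor of CSF1) between 1056 and 6283 CPM and Mrc1 (CD206) between 551 and 3384 CPM. The tdT- CTL libraries also held more RNA of a list of 5 dendritic cell markers, with a summed level of 618 to 3329 CPM against 48.2 to 77.0 CPM in tdT+ CTL libraries, and the highest sum was that of mouse 174. Of these dendritic markers, Xcr1 was at 0 in all CTL libraries, while Cd209a reached 2773 CPM.

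Sequences upstream of 4 members are shown because these genes carry the main shift of the prostaglandin branch, in which Ptgs2 and Ptges were high after LPS and Ptgs1 and Hpgd were high in CTL mice. Each is the 250 bases before the start given in RefSeq of build GRCm38.p6, on the strand of the gene. The windows of these 4 genes overlapped no exon of a coding gene. In GENCODE on GRCm38 the Ptges gene spans chr2:30889471-30929863, so that its window lies inside this longer span. Capitals mark matches to C/EBP (TTNCNNAA), PU.1 (GAGGAA) and the GC box (GGGCGG) on either strand. The build behind the count table was not settled by the sources used here, and the sequences serve only to show the region.
Ptgs2 (chr1:150099781-150100030, plus strand): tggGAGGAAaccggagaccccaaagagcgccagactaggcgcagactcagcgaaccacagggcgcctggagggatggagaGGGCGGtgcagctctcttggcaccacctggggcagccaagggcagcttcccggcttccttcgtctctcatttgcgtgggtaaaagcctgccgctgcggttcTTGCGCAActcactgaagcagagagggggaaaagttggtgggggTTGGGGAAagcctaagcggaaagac
Ptges (chr2:30903298-30903547, minus strand): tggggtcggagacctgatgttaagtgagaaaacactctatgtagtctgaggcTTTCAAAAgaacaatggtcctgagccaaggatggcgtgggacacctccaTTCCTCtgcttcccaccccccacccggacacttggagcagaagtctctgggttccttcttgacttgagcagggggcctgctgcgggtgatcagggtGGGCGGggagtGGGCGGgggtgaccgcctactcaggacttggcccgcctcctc
Ptgs1 (chr2:36230176-36230425, plus strand): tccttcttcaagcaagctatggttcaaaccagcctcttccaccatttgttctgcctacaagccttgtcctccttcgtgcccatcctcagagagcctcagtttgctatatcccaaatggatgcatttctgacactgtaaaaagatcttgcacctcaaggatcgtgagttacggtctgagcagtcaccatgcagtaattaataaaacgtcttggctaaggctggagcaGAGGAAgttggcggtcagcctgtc
Hpgd (chr8:56294302-56294551, plus strand): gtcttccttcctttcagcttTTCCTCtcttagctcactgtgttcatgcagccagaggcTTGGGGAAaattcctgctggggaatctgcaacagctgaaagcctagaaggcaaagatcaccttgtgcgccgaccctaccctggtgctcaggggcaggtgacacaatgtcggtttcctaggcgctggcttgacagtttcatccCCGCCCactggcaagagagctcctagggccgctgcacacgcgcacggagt

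The Ptgs2 window held the C/EBP letters as the palindrome TTGCGCAA at −69 to −62 from the start, and as TTGGGGAA on the opposite strand at −25 to −18. The same TTGGGGAA lay in the Hpgd window at −192 to −185, and the Ptges window held TTTCAAAA at −198 to −191. C/EBP letters occurred in 36.8% of 32544 promoter windows of this length, PU.1 letters in 23.4% and the GC box in 33.0%, so that these matches are common. The Ptgs1 window held PU.1 letters alone, at −24 to −19. Windows were found for 9 of the 10 members, and none of the 9 held the letters of NF-kB, AP-1 (TGANTCA), the CRE core (TGACGT), an E-box (CACGTG) or a TATA box (TATAAA), which occurred in 4.11%, 6.73%, 6.50%, 6.03% and 12.3% of all windows. The Ptgs2 window was richer in GC (61.6%, with 13 CpG) than the median window (52.4%, with 6 CpG), and the Ptgs1 window was poorer (48.0%, with 5 CpG). A match is a description of the letters and not of binding. Letters outside these windows, those after the start included, were not searched. The windows of Hpgds, Ltc4s and Pla2g7 overlapped exons of coding genes by 178, 84 and 182 bases.

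After LPS most of these enzymes changed in both populations. In tdT- dCAMs, Pla2g7 and Ptges rose, and Hpgd, Ltc4s, Ptgs1 and Alox5 fell. In tdT+ dCAMs the same 6 genes passed the test in the same directions, and Ptgs2 rose as well. In tdT- dCAMs 2 members were higher and 4 lower, where 11.5% of all genes tested passed (7.20% higher and 4.27% lower). In tdT+ dCAMs 3 members were higher and 4 lower, where 5.89% of all genes passed (3.37% higher and 2.52% lower). The median log2 fold change over the members was −1.20 in tdT- and −1.50 in tdT+ dCAMs, beside 0.02 and 0.01 over all genes tested. Because the members were chosen with earlier results known, their shares and medians are descriptions and no test of enrichment. CTL and LPS values did not overlap for 7 members in tdT- and 8 in tdT+ dCAMs, where 12.6% and 17.8% of all genes showed no overlap. Passing means a Benjamini-Hochberg adjusted p under 0.05 over all genes tested and an absolute log2 fold change over 1, in the quasi-likelihood test of edgeR over all 20 libraries, and folds are given as log2 ± SE with n = 5 mice per group. In bulk libraries, fewer cells of a type and less RNA per cell cannot be told apart.

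**Figure D1:**
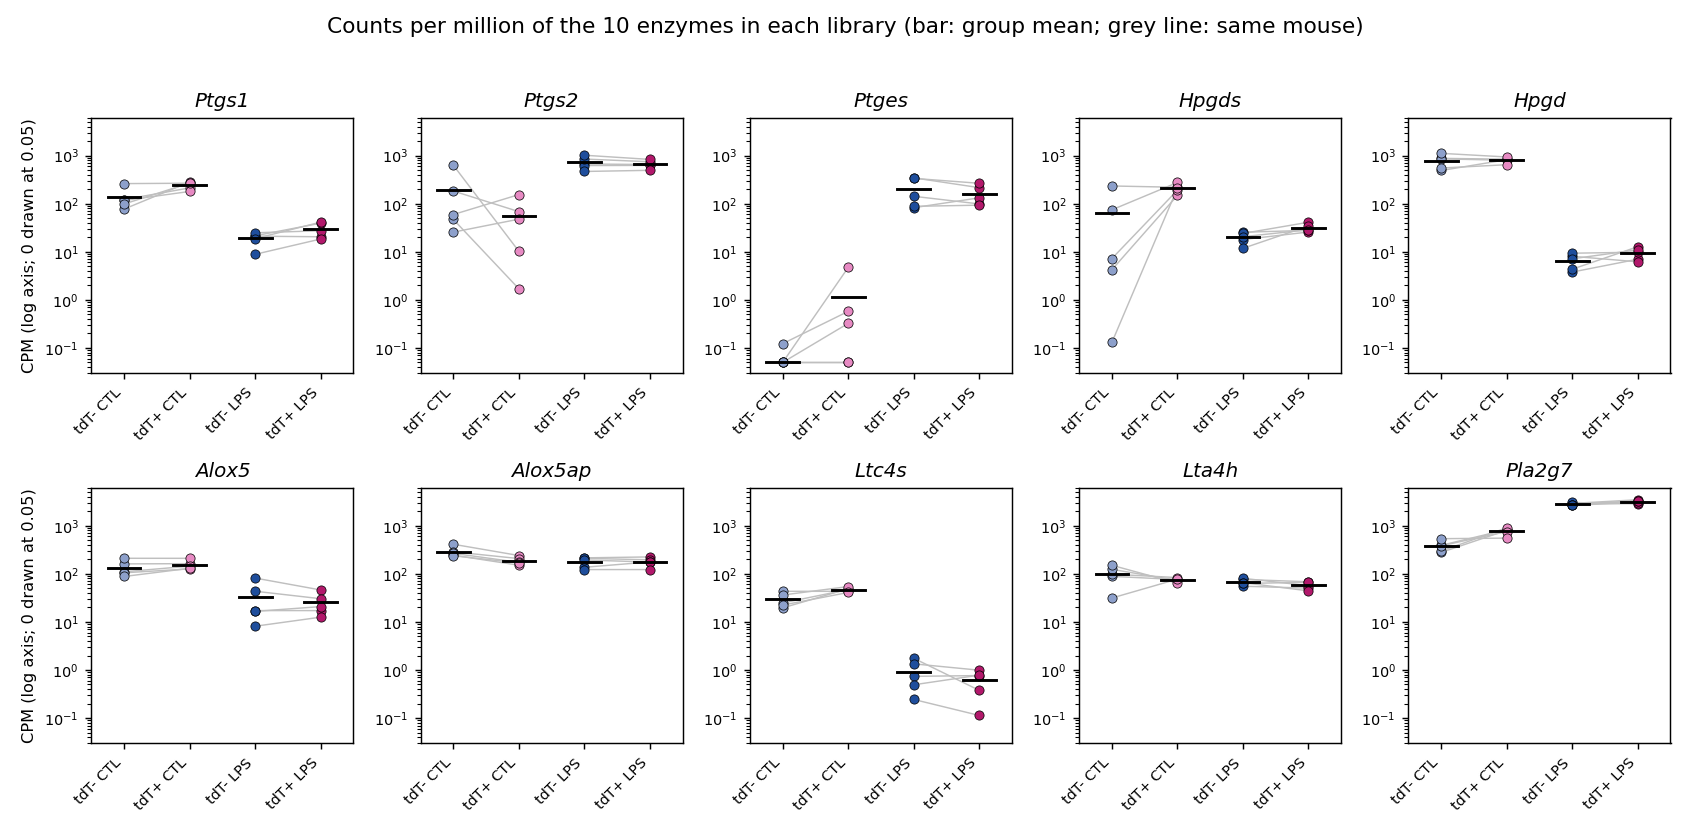
CPM (log axis, 0 drawn at 0.05) of the 10 enzymes in the 20 libraries, by group; each point is a library, black bars are group means and grey lines join the libraries of a mouse. LPS and CTL points lie apart for Hpgd, Ptgs1, Ltc4s, Ptges and Pla2g7 in both populations, Hpgds spreads from 0.131 to 234 CPM in tdT- CTL, and Lta4h stays between 31.4 and 150.5 CPM throughout.

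Hpgd (NAD-dependent 15-hydroxyprostaglandin dehydrogenase) fell in both populations, with the largest fitted fall of the members in each. Its level in tdT- CTL libraries was 877, 491, 855, 1116 and 552 CPM, and in tdT- LPS libraries it was 3.79, 8.06, 9.34, 4.35 and 7.16 CPM. In tdT+ CTL libraries it was 843, 822, 803, 938 and 647 CPM, and in tdT+ LPS libraries 7.02, 6.19, 9.81, 12.7 and 11.01 CPM. The lowest CTL library held 491 CPM and the highest LPS library 12.7 CPM. The group means fell from 778 ± 257 to 6.54 ± 2.39 CPM in tdT- dCAMs (SD, n = 5), 119-fold lower, and from 811 ± 105 to 9.35 ± 2.73 CPM in tdT+ dCAMs, 86.7-fold lower. The edgeR log2 fold change was −6.89 ± 0.35 (adjusted p = 5.98e-11) in tdT- and −6.43 ± 0.34 (adjusted p = 7.52e-11) in tdT+ dCAMs. The change was similar in size within mice whose titles begin with F (−6.68 in tdT- and −6.76 in tdT+ dCAMs, as a difference of mean log2(CPM + 0.5)) and with M (−7.10 and −6.22).

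Ptgs1 (cyclooxygenase 1) also fell in both populations. It was 77.4, 122, 262, 117 and 98.6 CPM in tdT- CTL and 21.5, 21.1, 24.8, 18.8 and 8.86 CPM in tdT- LPS libraries. It was 283, 213, 267, 179.9 and 269 CPM in tdT+ CTL and 39.4, 20.5, 27.4, 41.4 and 18.4 CPM in tdT+ LPS libraries. The lowest CTL library held more Ptgs1 than the highest LPS library in each population, and within tdT- CTL the library of mouse 177 stood above the other 4. The edgeR log2 fold change was −2.83 ± 0.38 (adjusted p = 2.75e-05) in tdT- and −3.04 ± 0.38 (adjusted p = 1.27e-05) in tdT+ dCAMs, and the means were 7.11-fold and 8.23-fold lower after LPS.

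Ptgs2 (cyclooxygenase 2) varied widely within the CTL groups and rose in tdT+ dCAMs. It was 629, 47.1, 183, 59.6 and 25.6 CPM in tdT- CTL and 671, 622, 849, 468 and 1019 CPM in tdT- LPS libraries. It was 10.2, 1.70, 68.5, 155 and 47.8 CPM in tdT+ CTL and 653, 626, 745, 495 and 834 CPM in tdT+ LPS libraries. The tdT+ groups did not overlap, while the tdT- CTL library of mouse 174 reached the range of the LPS libraries. The edgeR log2 fold change in tdT+ dCAMs was 3.57 ± 0.88 (adjusted p = 0.014). In tdT- dCAMs it was 1.94 ± 0.82 and did not pass (adjusted p = 0.122). Without mouse 174 the tdT- value was 3.19 and passed (adjusted p = 0.00787 in edgeR), and limma-voom gave 3.01 (adjusted p = 0.00566), or 3.01 with the mouse as a block (adjusted p = 0.00540). In DESeq2 and every other alternative run the tdT- rise did not pass. In both voom fits the median log2 fold change of all genes in this comparison was 0.76. The tdT- CTL library of mouse 174 also held the highest sum of dendritic cell markers (3329 CPM against 618 to 1229 in the other 4), and the part of those cells in its Ptgs2 level was not tested. After LPS the level was similar in all 10 libraries, between 468 and 1019 CPM.

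Ptges (microsomal prostaglandin E synthase) went from near or below detection to a high level. In tdT- CTL libraries it was 0, 0, 0.123, 0 and 0 CPM, which is 1 count in all, and in tdT- LPS libraries it was 143, 82.6, 345, 88.2 and 336 CPM. In tdT+ CTL libraries it was 0.325, 0, 0.577, 4.71 and 0 CPM, from 52 counts of which 45 were in mouse 178, and in tdT+ LPS libraries it was 98.9, 132, 216, 93.3 and 266 CPM. The lowest LPS library held 82.6 CPM, above every CTL library. All 5 tdT- CTL libraries were at or under 3 counts, taken as the floor of a library, and the mean of the tdT- LPS libraries was at least 528-fold higher than that floor of 0.377 CPM. Floors and intervals from these counts cover counting error only, since the libraries carry no molecular identifiers. In tdT+ dCAMs the edgeR log2 fold change was 7.15 ± 1.08 (adjusted p = 1.24e-04), or 9.54 without mouse 178 (adjusted p = 4.61e-06). In tdT- dCAMs the test also passed (adjusted p = 5.62e-06). Mice 59 and 61 held the highest Ptges in both populations.

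Hpgds (hematopoietic prostaglandin D synthase) differed between the populations in its spread. In tdT- CTL libraries it was 4.25, 234, 7.24, 74.7 and 0.131 CPM, a range of 1788-fold, with mice 175 and 178 high and mouse 179 at the floor. In tdT+ CTL libraries it was 149, 219, 191, 276 and 212 CPM, a range of 1.85-fold. In LPS libraries it was 18.0, 25.5, 24.1, 11.8 and 20.6 CPM in tdT- and 25.8, 27.9, 41.2, 34.4 and 28.8 CPM in tdT+ dCAMs. The tdT+ CTL and LPS values did not overlap and the means differed 6.63-fold, while the tdT- LPS values lay inside the CTL range. Neither change passed in the fit over all 20 libraries, with log2 fold changes of −1.68 ± 0.92 (adjusted p = 0.221) in tdT- and −2.73 ± 0.95 (adjusted p = 0.104) in tdT+ dCAMs. In that fit the spread of the tdT- CTL libraries is shared by all groups. In edgeR on the tdT+ libraries alone the tdT+ value was −2.73 with an adjusted p of 1.72e-06, DESeq2 gave −2.77 (adjusted p = 0.0200), limma-voom −2.76 (adjusted p = 0.00291), or −2.77 with the mouse as a block (adjusted p = 0.00281), and edgeR without mouse 179 −2.72 (adjusted p = 0.0289). In every other alternative run the tdT+ fall of Hpgds did not pass. The tdT- CTL library of mouse 179, with the lowest Hpgds, held the highest sum of 5 fibroblast markers (3993 CPM against 10.9 to 876 CPM in the other 4), and mouse 174, with 4.25 CPM Hpgds, held the lowest. In tdT- CTL libraries, genes with at least 10 counts numbered 9365 and 8566 in mice 175 and 178. They numbered 6671, 7762 and 6778 in mice 174, 177 and 179. The part of other cell types and of gene detection in the Hpgds level was not tested. Hpgds is known from mast cells, whose list of 9 markers summed to 0.491 to 57.9 CPM in tdT- CTL and 8.66 to 65.0 CPM in tdT+ CTL libraries. In tdT+ CTL libraries Tpsb2 reached 24.9, Cma1 21.2 and Cpa3 12.0 CPM, while Fcer1a was at 0 in all CTL libraries. The highest mast cell sum in tdT- CTL (57.9 CPM) was that of mouse 175, which also had the highest Hpgds, and mouse 178, with the next highest Hpgds, had a sum of 4.63 CPM.

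The ratios of Ptgs1, Pla2g7 and Ptgs2 RNA to Hpgd RNA were higher after LPS in each library, given per exon length and with no test. The log2 ratio of Ptgs1 to Hpgd, in CPM per kb, averaged −3.80 in tdT- CTL and −2.96 in tdT+ CTL libraries and 0.33 and 0.41 in tdT- and tdT+ LPS libraries, where both genes had fallen. The log2 ratio of Pla2g7 to Hpgd went from −1.80 ± 0.77 to 8.03 ± 0.58 in tdT- and from −0.87 ± 0.19 to 7.65 ± 0.41 in tdT+ dCAMs (SD, n = 5). The ratios of Ptgs2 were added after the values of the genes had been seen. The log2 ratio of Ptgs2 to Hpgd averaged −4.39 ± 1.63 in tdT- CTL and −6.46 ± 2.54 in tdT+ CTL libraries, and 5.37 ± 0.48 in tdT- and 4.74 ± 0.54 in tdT+ dCAMs after LPS. The highest CTL library was at −1.92 and the lowest LPS library at 3.83, so that Hpgd RNA exceeded Ptgs2 RNA in each CTL library and the reverse held in each LPS library. The log2 ratio of Ptgs2 to Ptgs1 went from −0.59 ± 1.96 to 5.04 ± 0.88 in tdT- and from −3.50 ± 2.60 to 4.32 ± 0.75 in tdT+ dCAMs. In CTL mice Ptgs1 RNA exceeded Ptgs2 RNA in 9 of 10 libraries, the exception being the tdT- library of mouse 174 with 2.78.

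**Figure D2:**
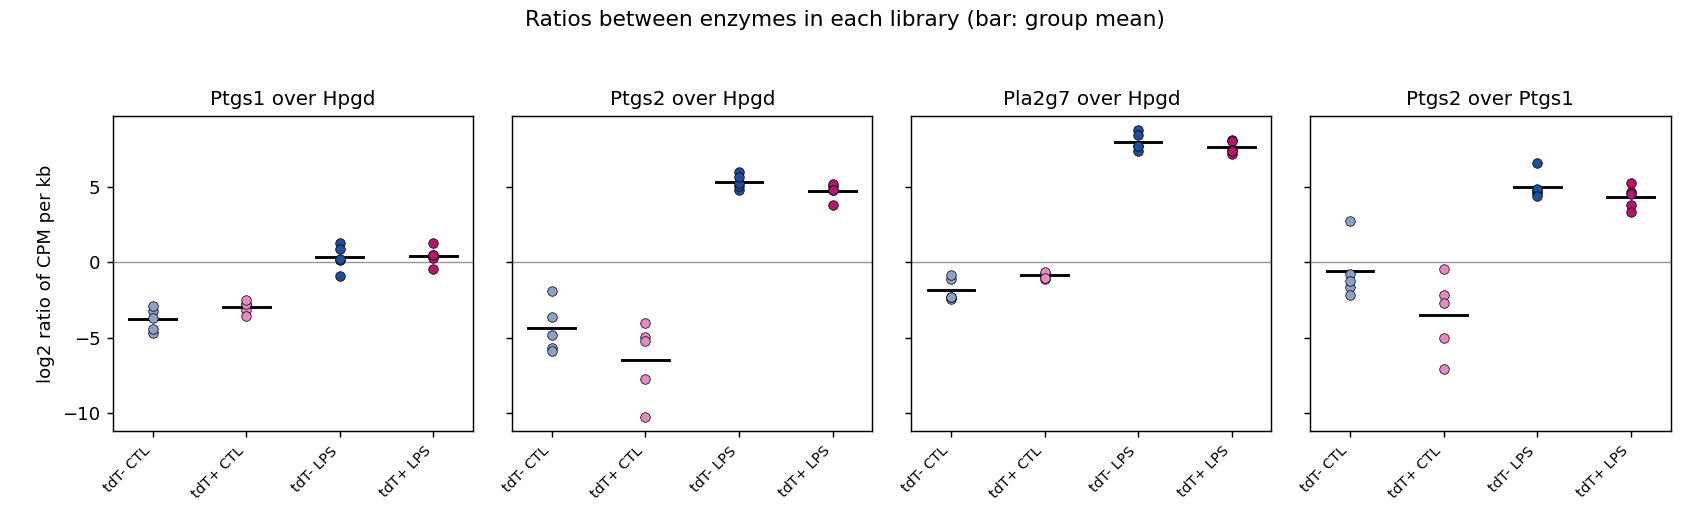
Log2 ratios of CPM per kb of exon between pairs of enzymes in each library, by group, with the group mean as a bar. The ratio of Ptgs2 to Hpgd lies between −10.3 and −1.92 in CTL libraries and between 3.83 and 5.997 in LPS libraries, and the ratio of Ptgs1 to Hpgd ends near 0 after LPS.

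In the leukotriene branch the enzyme that opens the pathway and the synthase of cysteinyl leukotrienes fell, whereas Alox5ap and Lta4h did not pass in either population. Ltc4s (leukotriene C4 synthase) was 19.6, 24.8, 43.3, 36.2 and 22.4 CPM in tdT- CTL and 1.75, 1.34, 0.737, 0.492 and 0.244 CPM in tdT- LPS libraries. It was 48.8, 47.0, 43.2, 54.3 and 40.9 CPM in tdT+ CTL and 0.377, 0.990, 0.765, 0.782 and 0.113 CPM in tdT+ LPS libraries. The CTL libraries held at least 19.6 CPM and the LPS libraries at most 1.75 CPM, with 64 counts over the 5 tdT- libraries and 40 over the 5 tdT+ libraries after LPS. The edgeR log2 fold change was −4.98 ± 0.70 (adjusted p = 4.52e-05) in tdT- and −6.26 ± 0.74 (adjusted p = 5.63e-06) in tdT+ dCAMs, and the means were 32.0-fold and 77.4-fold lower. In GENCODE on GRCm38, 26.4% of the exon bases of Ltc4s are shared with an antisense gene, and reads of the pair cannot be told apart where the strand was not used in counting, which is not stated.

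Alox5 fell in both populations, with LPS libraries that spread 10.04-fold in tdT- and 3.68-fold in tdT+ dCAMs. It was 161, 210.5, 110.3, 105 and 88.0 CPM in tdT- CTL and 81.7, 43.4, 17.2, 16.6 and 8.13 CPM in tdT- LPS libraries. It was 163, 210.1, 144, 126 and 130.3 CPM in tdT+ CTL and 46.2, 30.4, 17.2, 20.8 and 12.5 CPM in tdT+ LPS libraries. The groups did not overlap, though the tdT- LPS library of mouse 54 (81.7 CPM) came close to the lowest CTL library (88.0 CPM). Among LPS mice, 54 and 56 held the highest and mouse 61 the lowest Alox5 in both populations. In edgeR the log2 fold change was −2.01 ± 0.51 (adjusted p = 0.0116) in tdT- and −2.61 ± 0.52 (adjusted p = 0.00244) in tdT+ dCAMs. In a fit of the tdT- libraries alone the tdT- fall was −2.02 and no longer passed (adjusted p = 0.0871). The titles of mice 54 and 56 begin with F and those of the other LPS mice with M. Within F the difference of mean log2(CPM + 0.5) was −1.27 in tdT- and −2.12 in tdT+ dCAMs, and within M it was −2.97 and −2.996. The difference between the letters was not tested.

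Alox5ap (the 5-lipoxygenase activating protein) ranged from 238 to 412 CPM in tdT- CTL, 151 to 240.2 in tdT+ CTL, 123 to 215 in tdT- LPS libraries, and in tdT+ LPS it was 123 to 225 CPM. Its tdT- groups did not overlap and its tdT+ groups did. In edgeR the log2 fold change was −0.72 ± 0.23 in tdT- dCAMs, where the adjusted p was 0.047 but the fold was under the threshold, and −0.07 ± 0.23 (adjusted p = 0.965) in tdT+ dCAMs. Lta4h (leukotriene A4 hydrolase) averaged 98.5 ± 44.6, 74.9 ± 7.20, 68.1 ± 10.2 and 57.2 ± 10.3 CPM (SD, n = 5) in the same order of groups. Its log2 fold changes were −0.53 ± 0.33 (adjusted p = 0.289) and −0.39 ± 0.33 (adjusted p = 0.618), and CTL and LPS values overlapped in both populations.

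Pla2g7 (the plasma form of platelet-activating factor acetylhydrolase) rose in both populations. It was 279, 391, 298, 384 and 538 CPM in tdT- CTL and 2914, 3043, 2704, 2756 and 2721 CPM in tdT- LPS libraries. It was 805, 831, 906, 756 and 553 CPM in tdT+ CTL and 3466, 2848, 2972, 3283 and 3277 CPM in tdT+ LPS libraries. The 10 LPS libraries lay between 2704 and 3466 CPM, and every CTL library was at or below 906 CPM. The edgeR log2 fold change was 2.90 ± 0.16 (adjusted p = 2.67e-10, 7.48-fold between means) in tdT- and 2.04 ± 0.16 (adjusted p = 1.74e-08, 4.11-fold) in tdT+ dCAMs. An antisense gene shares 10.98% of the exon bases of Pla2g7, and its 3085 counts over all libraries compare with 466679 of Pla2g7. Genes on the opposite strand also share 13.3% of the exon bases of Alox5ap and 3.81% of those of Ptgs1, and neither was in the count table.

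**Figure D3:**
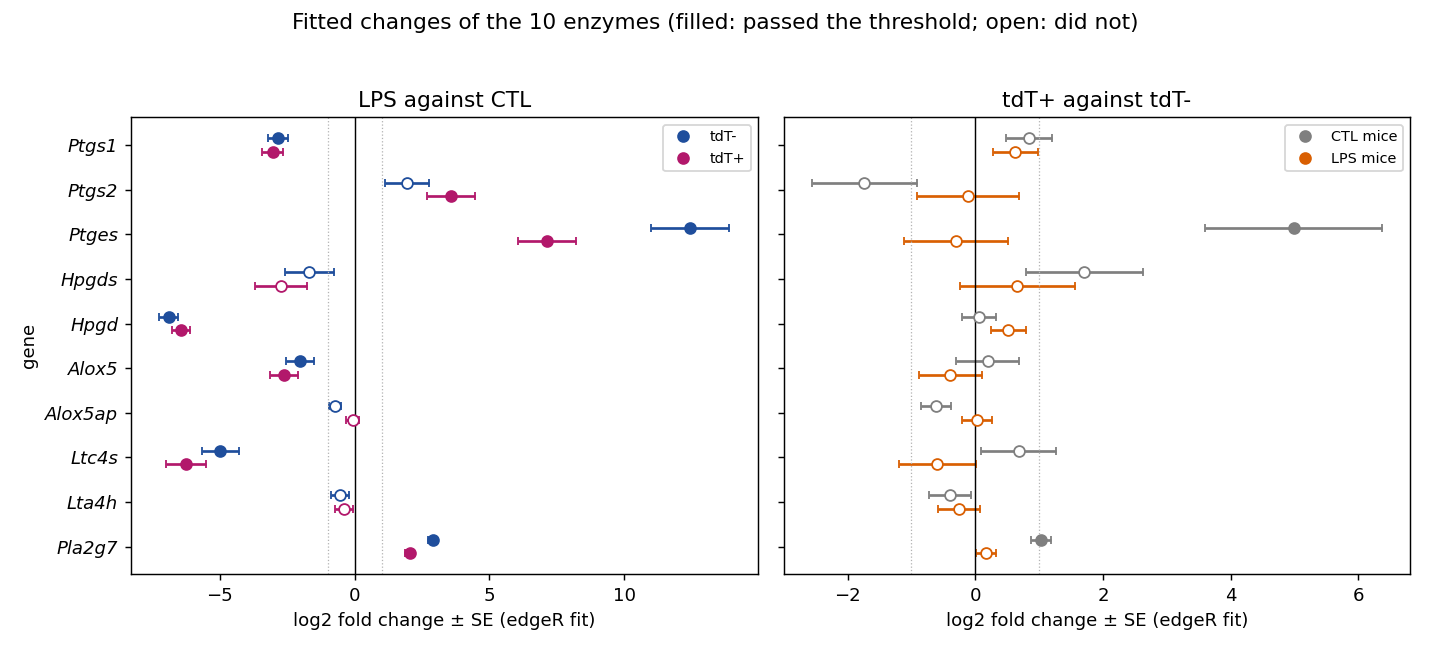
Log2 fold change ± SE from the edgeR fit for the 10 enzymes, LPS against CTL in each population (left) and tdT+ against tdT- in CTL and LPS mice (right), with filled points past the threshold and dotted lines at a log2 fold change of −1 and 1. The values for Ptges against tdT- CTL rest on a group at the floor and are no measure of size, and in LPS mice all 10 points on the right are open.

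Set against the length of all annotated exons, which allows only a rough comparison between genes, the order of the enzymes changed with LPS. The length of the transcripts in use was not measured. In tdT+ CTL libraries Hpgd was highest with 482 ± 62.4 CPM per kb (SD, n = 5), followed by Pla2g7 with 265 ± 45.8, Alox5ap with 133 ± 25.0 and Ptgs1 with 62.4 ± 11.3. Ltc4s (46.2 ± 5.10), Alox5 (37.7 ± 8.28) and Hpgds (32.6 ± 7.19 CPM per kb) came next. The values of Hpgd, Pla2g7, Alox5ap and Ptgs1 did not overlap in these libraries, while those of Ptgs1 and Ltc4s, Ltc4s and Alox5, and Alox5 and Hpgds did. In tdT+ LPS libraries Pla2g7 was highest with 1091 ± 86.9 CPM per kb, followed by Ptgs2 with 146 ± 27.9, Alox5ap with 126 ± 26.2 and Ptges with 41.0 ± 19.4, and Ptgs2 and Alox5ap did not differ beyond their spread. Hpgd dropped to 5.56 ± 1.62 CPM per kb, next to Alox5 (6.19 ± 3.25) and Hpgds (4.92 ± 0.970). The tdT- groups gave Hpgd, Alox5ap and Pla2g7 as the highest in CTL (462 ± 153, 204 ± 50.0 and 130.04 ± 35.3 CPM per kb) and Pla2g7, Ptgs2 and Alox5ap in LPS mice (973 ± 50.4, 159 ± 46.5 and 124 ± 30.3).

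**Figure D4:**
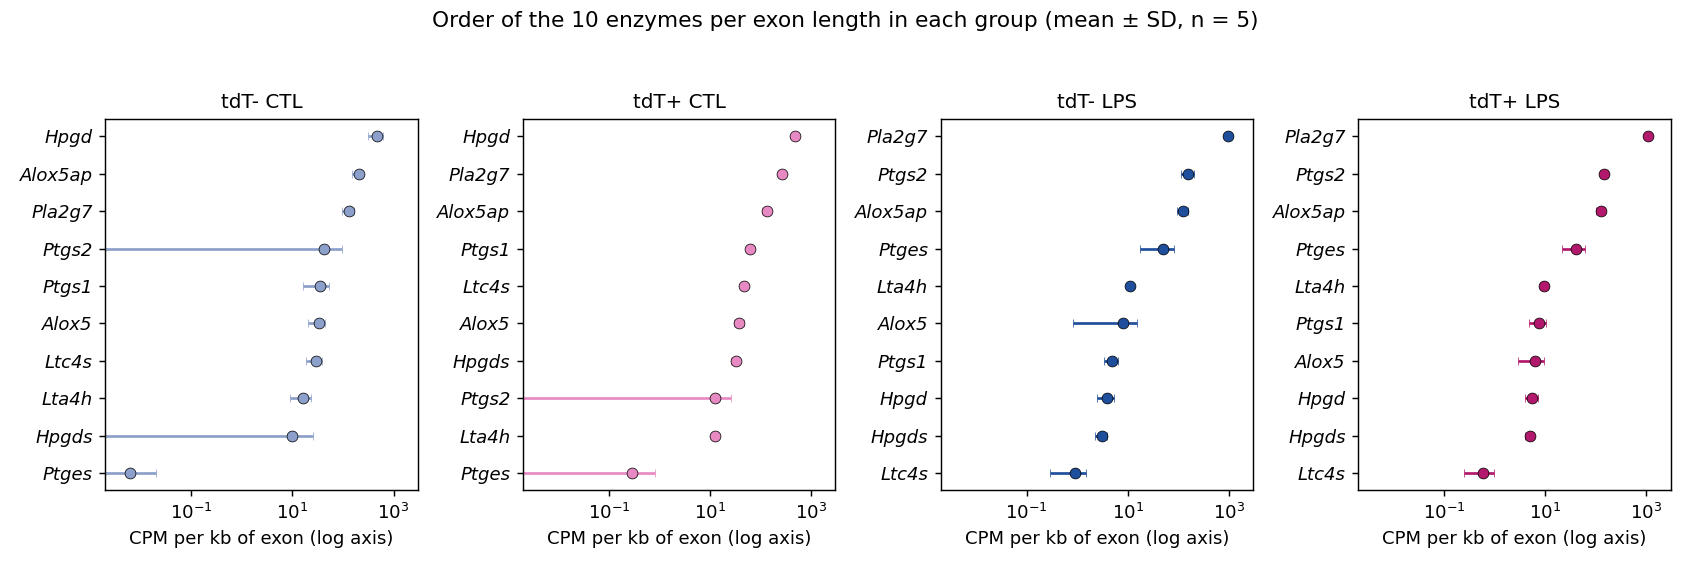
CPM per kb of exon (log axis) of the 10 enzymes, ordered within each group, as mean ± SD (n = 5 libraries); error bars that reach the left edge have an SD larger than the mean. Hpgd leads both CTL groups and stands among the lowest 3 in both LPS groups, while Pla2g7 leads both LPS groups and Ptges moves from the last place to the fourth.

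Between the populations of CTL mice, Pla2g7 and Ptges were higher in tdT+ than in tdT- dCAMs, and no member was lower. That is 2 of 10 members, where 4.28% of all genes tested passed (3.01% higher and 1.27% lower in tdT+). Pla2g7 was higher in the tdT+ library in 5 of 5 mice and the groups did not overlap, as for 1 of 10 members and 3.78% of all genes. Its edgeR log2 fold change was 1.03 ± 0.15 (adjusted p = 4.64e-04), close to the fold threshold, and it no longer passed without mouse 174 (0.92) or 177 (0.89), in edgeR on the CTL libraries alone with (1.06, adjusted p = 0.612) or without mouse terms (1.03, adjusted p = 0.179), in limma-voom (0.94, adjusted p = 0.615) or in voom with the mouse as a block (0.95, adjusted p = 0.615). Ptges was detected above the floor in 2 of 5 tdT+ libraries and in none of the tdT- libraries. Its log2 fold change was 4.99 ± 1.38 with an adjusted p of 0.0415 in edgeR, just inside the threshold. The call was lost on leaving out any of 8 of the 10 mice, LPS mice included, with adjusted p between 0.0600 and 0.317 (0.0712 without mouse 177 and 0.317 without mouse 178). It was also lost in edgeR on the CTL libraries alone (adjusted p = 0.309, or 0.642 with mouse terms), in limma-voom (0.370) and in voom with the mouse as a block (0.348).

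Several other members leaned to one population in CTL mice without passing. Ptgs1 was higher in tdT+ in 5 of 5 mice (log2 fold change 0.84 ± 0.35, adjusted p = 0.165), and Alox5ap was lower in tdT+ in 5 of 5 mice (−0.62 ± 0.23, adjusted p = 0.126). Among all genes tested, 5.85% were higher and 3.61% lower in tdT+ in all 5 mice. Hpgds was higher in tdT+ in 4 of 5 mice, with a log2 fold change of 1.71 ± 0.92 (adjusted p = 0.27). It passed without mouse 175 (3.43, adjusted p = 0.0322), in limma-voom (4.31, adjusted p = 0.00468) and in voom with the mouse as a block (4.31, adjusted p = 0.00395), but not in edgeR with mouse terms (4.05, adjusted p = 0.642). Ptgs2 was lower in tdT+ in 3 of 5 mice (−1.74 ± 0.82, adjusted p = 0.204). The log2 fold change of Hpgd was 0.06 ± 0.27, where tdT+ libraries averaged 811 ± 105 and tdT- libraries 778 ± 257 CPM (SD, n = 5). Beside these values, the summed level of 12 border macrophage markers was 16434 to 20255 CPM in tdT+ and 7030 to 14267 CPM in tdT- CTL libraries, and that of 5 monocyte markers 160 to 467 and 548 to 1095 CPM. Their part in the differences was not tested.

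In LPS mice none of the 10 members passed between the populations in edgeR, where 5 of 16632 genes did (0.0301%). Among the members 0 had an unadjusted p under 0.05, and DESeq2 and limma-voom also called 0. The log2 fold changes ran from 0.66 ± 0.90 for Hpgds and 0.63 ± 0.35 for Ptgs1 down to −0.60 ± 0.60 for Ltc4s. Hpgds was higher in tdT+ in 5 of 5 mice, as were 5.19% of all genes, and its groups, 11.8 to 25.5 CPM in tdT- and 25.8 to 41.2 CPM in tdT+, did not overlap, which held for 1 member and for 1.79% of all genes. The summed dendritic markers were 262 to 638 CPM in tdT- and 11.4 to 52.5 CPM in tdT+ libraries of these mice. Ccr7 made up most of that gap (401 against 7.21 CPM), while Cd209a, which made up most of it in CTL mice (1228 against 44.1 CPM), overlapped after LPS.

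The edgeR test of the difference between the LPS effects called 0 of the 10 members, against 1.26% of all genes (0.0902% higher and 1.17% lower in tdT+). An unadjusted p under 0.05 was found for 2 members, and DESeq2 called 1 and limma-voom 0. Pla2g7 came nearest, with a difference of −0.86 ± 0.22 on the log2 scale, tdT+ minus tdT- (adjusted p = 0.0526 in edgeR), and passed without mouse 179 at −1.12 (adjusted p = 6.31e-04). For Ptges the fitted difference was −5.29 ± 1.64 and did not pass (adjusted p = 0.141), while DESeq2 gave −5.34 (adjusted p = 0.0253), and since it rests on the floor of tdT- CTL its size has no meaning. The difference was 1.62 ± 1.13 for Ptgs2 (adjusted p = 0.664), 0.46 ± 0.38 for Hpgd (adjusted p = 0.788) and −1.27 ± 0.84 for Ltc4s (adjusted p = 0.626). A Ptgs2 rise that passed in tdT+ and not in tdT- dCAMs is therefore not shown to differ between them.

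Around these 10 enzymes, 64 other genes of eicosanoid and platelet-activating factor metabolism were in the table and 57 were tested. After LPS 4 rose and 6 fell in the tdT- population, where 11.5% of all genes passed, and 3 rose and 6 fell in the tdT+ population, where 5.89% did, with a median log2 fold change of −0.21 and −0.42. Of 7 other prostanoid synthases, Tbxas1 (thromboxane A synthase) fell in both populations, from 137 ± 54.0 to 41.0 ± 16.0 CPM in tdT- (log2 fold change −1.74 ± 0.33, adjusted p = 0.00119) and from 298 ± 65.0 to 34.3 ± 10.2 CPM in tdT+ dCAMs (−3.12 ± 0.35, adjusted p = 2.88e-06). Cbr1 (carbonyl reductase 1, which reduces prostaglandin E2) fell in tdT- dCAMs (−1.63 ± 0.50, adjusted p = 0.0361), and its tdT+ value was −1.10 ± 0.49 (adjusted p = 0.221).

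Of 10 phospholipases tested, 2 fell in both populations and none rose. Pla2g15 (lysosomal phospholipase A2) fell from 227 ± 72.6 to 60.9 ± 17.4 CPM in tdT- (−1.90 ± 0.28, adjusted p = 9.83e-05) and from 398 ± 85.3 to 72.5 ± 13.9 CPM in tdT+ dCAMs (−2.45 ± 0.29, adjusted p = 5.63e-06). Pla2g2d, a secreted phospholipase, ranged from 302 to 450.4 CPM in tdT+ CTL to 0.453 to 18.2 CPM in tdT+ LPS libraries and fell in both populations, though its tdT- CTL range of 0 to 221 CPM included a library at 0. Pla2g4a, the cytosolic phospholipase A2 that releases arachidonic acid, did not pass in either population. Its CPM ranged from 0 to 245 in tdT- CTL, 9.97 to 106 in tdT+ CTL, 59.5 to 93.9 in tdT- LPS and, for tdT+, 52.1 to 92.4 in LPS libraries, so that the LPS groups were the narrower ones.

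Among 14 receptors tested, Ptger2 (the EP2 receptor of prostaglandin E2) rose in both populations, and Ptger4 (the EP4 receptor) fell in tdT+ dCAMs. Ptger2 was at or under the floor in 9 of 10 CTL libraries and between 13.0 and 34.6 CPM in the LPS libraries, at least 67.4-fold higher in tdT- dCAMs, with an adjusted p of 4.51e-04 in tdT- and 0.0123 in tdT+ dCAMs. Ptger4 averaged 94.5 ± 26.5 CPM in tdT- CTL and 47.8 ± 14.0 in tdT- LPS libraries, and 127 ± 62.6 in tdT+ CTL and 31.2 ± 2.21 in tdT+ LPS libraries. Its log2 fold change was −2.02 ± 0.39 (adjusted p = 0.00154) in tdT+ and −0.98 ± 0.38 (adjusted p = 0.0893) in tdT- dCAMs. Ptgir (the prostacyclin receptor) rose in tdT- dCAMs, at a level of 2.36 to 8.66 CPM after LPS. Cysltr1, a receptor of the cysteinyl leukotrienes that Ltc4s feeds, fell in both populations, with −1.27 ± 0.38 (adjusted p = 0.0305) in tdT- and −1.34 ± 0.38 (adjusted p = 0.0348) in tdT+ dCAMs on the log2 scale. Ltb4r1 (the high-affinity leukotriene B4 receptor) was at or under the floor in 4 of 5 tdT+ CTL libraries and rose there to 16.8 to 29.9 CPM, whereas in tdT- CTL libraries it ranged from 0 to 119.7 CPM and in tdT- LPS libraries from 53.0 to 69.9 CPM. In CTL mice it was also lower in the tdT+ population (adjusted p = 0.0313), as was Alox15, a lipoxygenase at 0 in the 5 tdT+ CTL libraries, with 0 to 77.4 CPM in tdT- CTL (adjusted p = 0.0492). These were the 2 of 57 pathway genes that passed in that comparison, where 4.28% of all genes did. Both no longer passed in edgeR on the CTL libraries alone (adjusted p = 0.309 for each, or 0.642 with mouse terms), with the letter of the sample title as a term, in limma-voom, or without any of 7 (Ltb4r1) or 9 (Alox15) of the 10 mice.

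The group of 11 genes of breakdown and conversion also included transporters. In this group Ephx2 (soluble epoxide hydrolase) rose in both populations, from the floor in 9 of 10 CTL libraries to between 4.92 and 23.4 CPM. Cyp4f18, which oxidizes leukotriene B4, fell in tdT+ dCAMs from 64.4 ± 19.2 to 17.0 ± 8.47 CPM (−1.92 ± 0.57, adjusted p = 0.0473). Ggt5, which converts leukotriene C4 to D4, fell in tdT- dCAMs (−4.61 ± 1.36, adjusted p = 0.0298), with −4.05 ± 1.33 (adjusted p = 0.0796) in tdT+ dCAMs. Dpep1, a dipeptidase of leukotriene D4, passed as higher in tdT- dCAMs at no more than 6.10 CPM. After LPS 0 of 8 lipoxygenases and partners passed in edgeR, where 4 in tdT- and 1 in tdT+ dCAMs had an unadjusted p under 0.05. Of 7 other genes of platelet-activating factor metabolism 0 passed, where 1 and 0 had one. Between the populations of LPS mice 0 of the 57 genes passed in edgeR, 7 had an unadjusted p under 0.05, and DESeq2 and limma-voom called 1 each. In edgeR on these LPS libraries with mouse terms, 3 were lower in tdT+: Alox15 (−7.11, adjusted p = 0.0128), Cyp4f18 (−2.49, adjusted p = 0.0308) and Ltb4r1 (−1.30, adjusted p = 0.0100), where 85 of all genes passed. In voom with the mouse as a block Alox15 passed (−7.19, adjusted p = 0.0282). For the difference of the LPS effects 0 passed, 11 had an unadjusted p under 0.05, and DESeq2 called 3 and limma-voom 0.

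Several of these pathway calls depended on the fit. In edgeR on the tdT- libraries alone, Cbr1 (adjusted p = 0.201), Cysltr1 (0.120), Ggt5 (0.171), Pla2g2d (0.131) and Dpep1 (0.0692) no longer passed in tdT- dCAMs, while Tbxas1 and Pla2g15 did. In tdT- dCAMs leaving out 1 mouse removed the call of Cbr1 (any of 7 mice), Cysltr1 (6), Ggt5 (6), Dpep1 (mouse 54 or 56) and Pla2g2d (mouse 61). In tdT+ dCAMs it removed the call of Ltb4r1 (any of 8 mice), Cyp4f18 (6), Ephx2 (5, the LPS mice) and Cysltr1 (5). In the tdT+ libraries alone Cbr1 (−1.10, adjusted p = 0.0151) and Ggt5 (−4.06, adjusted p = 1.68e-04) passed as lower. Tbxas1, Pla2g15 and Ptger2 passed in both populations under every alternative run.

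**Figure D5:**
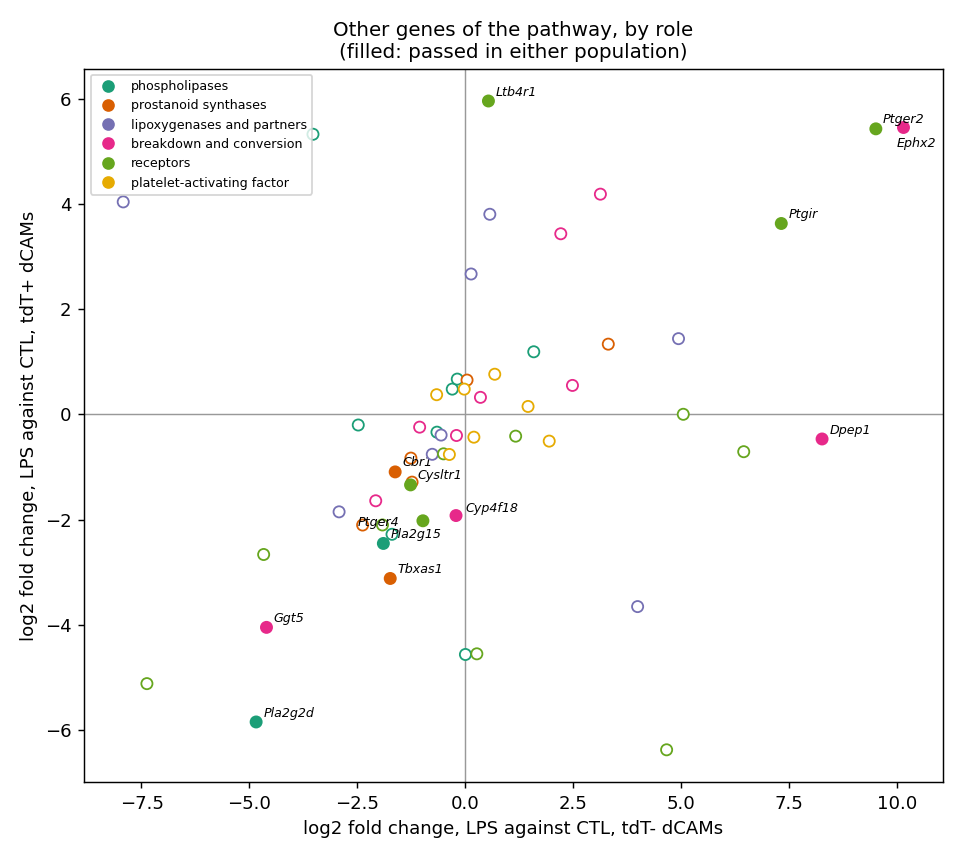
Log2 fold change, LPS against CTL, in tdT- (horizontal axis) and tdT+ dCAMs (vertical axis) for the other pathway genes that were tested, coloured by role, with filled and named points for genes that passed in either population. Tbxas1, Pla2g15, Pla2g2d and Cysltr1 lie below 0 on both axes and Ptger2 and Ephx2 above 0, and values of genes at the floor in CTL libraries are not measures of size.

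For the 8 members whose log2 CPM averaged 4 or more, the genes with the most similar level over the 20 libraries were sought among 5822 others, by the root mean square difference of centred log2 CPM. For Ptgs1 the nearest were Fcgrt (0.40), Aldh2 (0.48) and Selenop (0.48). For Pla2g7 they were Slc11a1 (0.37), Agtrap (0.40) and Siglece (0.41), and for Alox5 they were Neurl3 (0.53), Man2b1 (0.56) and Cd300c2 (0.56). Hpgd had larger distances, with Ighm at 0.80, Gas6 at 0.94 and Atf3 at 1.20. Hpgds (Tanc2, 0.97) and Ptgs2 (Pilra, 1.15) were similarly far from their nearest gene. Alox5ap (Atp5pd, 0.27) and Lta4h (Park7, 0.25) were nearest to genes that moved little. The distance is not scaled to the spread of each gene. The SD over the 20 libraries was 3.45 for Hpgd, 2.53 for Ptgs2 and 2.37 for Hpgds. It was 1.63 for Ptgs1, 0.42 for Alox5ap and 0.49 for Lta4h. Distances therefore do not rank members by how closely a neighbour follows them.

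Markers of other leukocytes moved with LPS and are given for the enzymes that rose. The list of 8 neutrophil markers summed to 1.05 to 181 CPM in the CTL and 244 to 815 CPM in the LPS libraries, and 3 of the 8 were high after LPS. S100a8 averaged 291 CPM in the tdT- and 309 CPM in the tdT+ population after LPS. Mmp8 was at most 0.325 CPM in CTL libraries and averaged 98.0 (tdT-) and 103 CPM (tdT+) after LPS, with 56.9 CPM in the lowest LPS library. Retnlg ranged from 23.2 to 642 CPM in tdT- LPS libraries and from 0 to 171 CPM in tdT- CTL libraries, and was at most 1.02 CPM in tdT+ LPS libraries. The other 5 (S100a9, Ly6g, Camp, Ltf and Ngp) were at or under 3.58 CPM in every LPS library. The mast cell list summed to 6.94 to 217 CPM in LPS libraries. Of 3 basophil markers Mcpt8 was at 0 in all 20 libraries, and 6 platelet markers summed to at most 53.9 CPM. The part of these cells in the LPS changes of the enzymes was not tested. The 12 border macrophage markers summed to 8261 to 10209 CPM in tdT- LPS libraries, against 7030 to 14267 CPM in tdT- CTL. In tdT+ libraries the sum was 10529 to 14031 CPM after LPS, against 16434 to 20255 CPM in CTL. Within this list tdT+ means moved both ways, with Csf1r from 5992 to 1416 CPM and Itgam from 190 to 1062 CPM. The part of these shifts in the falls of the enzymes was not tested.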

How the data were processed

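Bulk RNA-seq was made from 20 libraries of sorted dura cells, 2 from each of 10 mice. The deposited values are raw counts per gene symbol, which the authors obtained with bcl2fastq 2.20, STAR 2.7.11a and featureCounts 2.0.6, per the submitters' processing notes. The genome build of this table and the use of strand in counting were not given in the sources used here. Genes with at least 10 counts in total were scaled with TMM and fitted by group over all 20 libraries with the quasi-likelihood test of edgeR 4.0.16 in R 4.3.3, in 5 comparisons. Calls needed a change of over 1 on the log2 scale in either direction and p under 0.05 after Benjamini-Hochberg adjustment. The script was tested on simulated data with known changes, in which libraries were independent and all groups shared the tdT+ CTL baseline. That setting lacks the pairing by mouse and the lower gene detection of the tdT- CTL libraries. DESeq2 1.42.0, limma-voom (limma 3.58.1), other scalings and filters, fits of the compared libraries alone, a title letter term, a mouse block and leaving out each mouse were run as alternatives. Both libraries of a mouse come from the same animal. The correlation of their deviations from the group means, over 5823 genes, was −0.0046 to 0.0461 in CTL and 0.228 to 0.449 in LPS mice. The members and lists were chosen with earlier results of these data known. The text names all members, pathway genes that passed in any comparison together with 5 fixed ones (Ptger2, Ptger4, Ltb4r1, Tbxas1 and Pla2g4a), cell type markers, and the genes nearest to each of 8 members (3 were found for each, and the text gives all 3 for 4 members and the first for the other 4). Exon lengths came from GENCODE M21. Columns of other samples were not present. The 20 library totals limit what low counts can show, and 3 counts were taken as the floor of a library.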

Additional observations from a re-analysis of the deposited data

Results flagged for a closer look

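Within groups of 5 libraries, 5 of 40 tested sets of values had a highest library farther from the others than Dixon's test at 95% allows, and chance flags about 1 in 20 groups. In tdT- CTL libraries these were Ptgs1 in mouse 177 (262 CPM), Ptgs2 in mouse 174 (629 CPM), Alox5ap in mouse 174 (412 CPM) and Ptges in mouse 177, whose 0.123 CPM is 1 count. In tdT+ CTL libraries it was Ptges in mouse 178 (4.71 CPM, 45 counts). The tdT- library of mouse 174, high in Ptgs2 and Alox5ap, also had the highest summed dendritic cell markers (3329 CPM) and monocyte markers (1095 CPM) of its group and the lowest border macrophage markers (7030 CPM), and their part in these levels was not tested. Without mouse 174 the LPS effect on Ptgs2 in tdT- dCAMs passed, and without mouse 177 or 178 the CTL difference of Ptges did not, as it did not without 6 other mice. Leaving out the mouse concerned changed no call of Ptgs1 or Alox5ap in the 5 comparisons.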

How the results depend on the processing

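Over the members, 928 of 960 single-gene values under the alternatives kept their side of the threshold, 19 no longer passed and 13 newly passed. Of the values that passed in either setting 0 changed sign, and the sign of values that passed in neither was not counted. For LPS the members called were 2 to 3 higher and 4 lower in tdT- dCAMs and 3 higher and 4 to 5 lower in tdT+ dCAMs on leaving out 1 mouse. In CTL mice the 2 members higher in tdT+ were 0 to 3 on leaving out 1 mouse, 1 in limma-voom, 1 in voom with the mouse as a block, 0 in the CTL libraries alone and 0 with mouse terms. The 1 called in both voom fits was Hpgds, and neither Ptges nor Pla2g7 passed there. For the difference of the LPS effects, members lower were 1 in DESeq2 and 0 to 1 on leaving out 1 mouse. Among pathway genes, those higher after LPS in tdT- dCAMs (4) were 8 in DESeq2, 11 in limma-voom, 11 with the mouse block and 3 to 8 on leaving out 1 mouse, and those lower (6) were 2 in the compared libraries alone and 2 to 8. In tdT+ dCAMs those higher (3) were 7 in DESeq2, 6 in limma-voom, 6 with the mouse block, 5 in the compared libraries alone and 1 to 4, and those lower (6) were 13 in the compared libraries alone and 4 to 7. In CTL mice pathway genes higher in tdT+ (0) were 1 with DESeq2 size factors, 1 with library totals, 2 with filterByExpr, 5 in DESeq2, 5 in limma-voom, 5 with the mouse block and 0 to 5, and those lower (2) were 1 with size factors, 1 with totals, 1 in limma-voom, 0 in the CTL libraries alone, 0 with the title letter, 0 with mouse terms and 0 to 2. In LPS mice those lower (0) were 1 in DESeq2, 1 in limma-voom, 2 in the LPS libraries alone, 1 with the mouse block and 3 with mouse terms. For the difference, those higher (0) were 1 in DESeq2 and 0 to 1, and those lower (0) were 2 in DESeq2 and 0 to 1. Over all genes the number called ranged from 891 to 4533 in tdT- (1907 as reported) and 691 to 2262 in tdT+ dCAMs after LPS (979), 3 to 2245 in CTL mice (712, with 7 in the CTL libraries alone, 2 higher and 5 lower, 3 with mouse terms and 1352 without mouse 175), 1 to 85 in LPS mice (5) and 63 to 744 for the difference (209). In limma-voom the median log2 change of all genes was 0.76 for LPS in tdT- dCAMs, 0.54 in CTL mice and −0.61 for the difference, and the calls were 3662 higher and 871 lower in tdT- dCAMs (1197 and 710 as reported) and 1822 higher and 249 lower in CTL mice (500 and 212). The cause of these shifts was not tested. The mouse block, in voom or as mouse terms, changed no call of a member beyond those given with Ptgs2, Hpgds, Ptges and Pla2g7. Depth limits Ptges, at or under 3 counts in 8 of 10 CTL libraries, and Ltc4s after LPS.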
